A study of Homo sapiens with 4 samples.

Results

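The cytosolic ribosomal protein genes encode the proteins of the translating ribosome, and their messages were followed in human embryonic kidney HEK293T cells that had lost PBRM1 to CRISPR and then received a plasmid for GFP-tagged PBRM1. PBRM1 belongs to the chromatin remodeller PBAF. The plasmids encoded the BAH (bromo-adjacent homology) domain mutants P1048R, T1202K or C1233W, or the unaltered protein (WT), and RNA was taken after 48 h. The PBRM1 disruption and the GFP tag were thus common to all 4 libraries, of which there was 1 per construct. Members were the genes with a standard RPL, RPS or RPLP symbol for a cytosolic ribosomal protein, together with their L and L1 paralogs, and at least 10 reads over the 4 libraries. Of 84 matching symbols, RPL10L was listed with 0 reads in every library and was left out. The remaining 83 genes, of 58735 in the table, comprised 43 large-subunit genes, the P-stalk genes RPLP0, RPLP1 and RPLP2, 31 small-subunit genes and 6 paralogs. At the edge of the rule, RPL3L (51 reads in all) and RPL39L (280) were the lowest members kept. All 83 passed the filter for comparison, a level of at least 1 CPM (the usual depth-scaled read rate) in at least 1 library.

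The cytosolic ribosome is assembled in the nucleolus from ribosomal RNA and a large set of proteins that are needed in nearly equal numbers. Most of these proteins are encoded by single, intron-containing genes scattered over the genome, here on 21 chromosomes, with 12 members on chromosome 19 and 9 on chromosome 3. Their messages belong to the TOP class, which begins with a cytosine followed by an uninterrupted run of pyrimidines (5′ terminal oligopyrimidine tract). This tract lets LARP1 and mTORC1 signalling set how strongly they are translated.

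The start windows of 11 members are shown because the tract is the shared feature of this gene family. These genes were among those with the lowest and highest ratios, or belong to a paralog pair described below. Each window runs from 10 bases before the RefSeq-annotated start to 20 bases from it, 5′ to 3′ on the gene's strand (GRCh38.p14). Capitals mark a pyrimidine run of at least 5 bases that opens with C and begins within 5 bases of the annotated start.
RPS27 (chr1:153990752-153990781, plus strand): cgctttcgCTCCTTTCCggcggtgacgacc
RPL39 (chrX:119791611-119791640, minus strand): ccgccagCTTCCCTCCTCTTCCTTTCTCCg
RPL41 (chr12:56116623-56116652, plus strand): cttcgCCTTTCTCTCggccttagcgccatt
RPL21 (chr13:27251548-27251577, plus strand): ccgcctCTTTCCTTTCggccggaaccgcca
RPS25 (chr11:119018324-119018353, minus strand): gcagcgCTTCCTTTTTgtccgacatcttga
RPL36A (chrX:101391001-101391030, plus strand): ctcgcggtttCTTTCTTTCCgcgccgatag
RPL36 (chr19:5690285-5690314, plus strand): cggcgccagCCCTTCCgccacggccgtctc
RPL13 (chr16:89560647-89560676, plus strand): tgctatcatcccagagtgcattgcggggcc
RPL22 (chr1:6199576-6199605, minus strand): cgctcaCCTCCCTTTCTaactccgctgccg
RPL22L1 (chr3:170870176-170870205, minus strand): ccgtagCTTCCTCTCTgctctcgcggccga
RPS27L (chr15:63157458-63157487, minus strand): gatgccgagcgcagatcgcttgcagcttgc

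A promoter window was matched for 66 of the 83 members. In 43 of the 66 (65.2%), a C followed by at least 4 further C or T bases stood exactly at the annotated start on the gene's own strand, against 4.07% of all 35116 RefSeq promoter windows of the same length. Allowing the run to begin within 5 bases of the start, it was found in 51 members (77.3%) and in 21.1% of all windows. The sequence TATAAA lay between 40 and 16 bases before the start in 3 members (4.55%) and in 2.30% of all windows. RPL13 and RPS27L had no such pyrimidine run in the letters printed above, which describes this annotated window and no other start site. The windows of RPL10A, RPS21 and RPL3, also at the upper end of the ratios, are not printed. They held runs of 9, 15 and 5 bases that began within 5 bases of the start.

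The libraries held 11205322 (P1048R), 10993748 (T1202K), 10348552 (C1233W) and 10246250 (WT) counted reads. PBRM1 took 0.938% of reads in P1048R, 1.57% in T1202K, 6.04% in C1233W and 2.08% in WT. Mitochondrially encoded genes took 5.63%, 5.53% and 6.23% of reads in P1048R, T1202K and C1233W, and 8.48% in WT. Plasmid and endogenous PBRM1 transcripts are not separated by these counts. Of the HEK293T markers, VIM stood at 536 to 693 CPM in the mutants and 709 CPM in WT, and KRT18, KRT8, NEFM, PAX2 and LHX1 were also detected. The blood marker PTPRC and the keratinocyte marker KRT5 had 0 or 1 read per library, the endothelial marker PECAM1 at most 3, and ALB and LUM at most 23, whereas COL1A1 was at 15.8 to 30.2 CPM in the mutants and 30.1 CPM in WT. With no second library of any construct, there is no replicate check, and every difference below is between single libraries. Intervals in parentheses are 95% counting intervals and cover counting error only. They may be too narrow even for that, since PCR copies are not independent molecules.

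Ribosomal protein messages made up a smaller share of counted reads in the mutants than in WT. The 83 members together took 3.92% of reads in P1048R (3.91 to 3.93), 4.36% in T1202K (4.35 to 4.38), 4.54% in C1233W (4.52 to 4.55) and 4.62% in WT (4.60 to 4.63). With PBRM1 and the mitochondrially encoded genes taken out of the totals, the shares were 4.20%, 4.70% and 5.17% in P1048R, T1202K and C1233W, and 5.16% in WT. C1233W and WT thus differed in the first measure but stood side by side in the second, while P1048R was lowest in both. The balance between the subunits was nearly level: of 100 member reads, the large subunit with its stalk took 60.6 in P1048R, 60.3 in T1202K, 60.7 in C1233W and 60.7 in WT. In bulk RNA, fewer cells with a message and less of it per cell cannot be told apart.

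After TMM scaling (trimmed mean of M values), which sets most genes near 0, the median log2 ratio of the 83 genes was −0.44 in P1048R against WT. It was −0.21 in T1202K against WT and −0.15 in C1233W against WT. The medians of all 16262 genes were −0.04, −0.01 and −0.01 in the same comparisons, so the members lay 0.40, 0.20 and 0.14 below them. Set against genes with a mean of at least 100 CPM the distance was smaller, and in C1233W it changed sign, as given below. In P1048R 78 of the 83 genes had a ratio below 0, and 64 did in T1202K and in C1233W. The SD of the members' ratios across genes was 0.31, 0.34 and 0.25 in P1048R, T1202K and C1233W, against 0.64, 0.57 and 0.58 for all genes and 0.37, 0.30 and 0.30 for the genes with a mean of at least 100 CPM. The 83 members include sparse paralogs such as RPL3L. For the 77 core members, which leave out the paralogs, the SD was 0.25, 0.29 and 0.22. That was below the SD of the abundant genes in P1048R and C1233W and close to it in T1202K. These 3 comparisons share the single WT library, and so share whatever is particular to it.

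Few members differed from WT by 2-fold, and many by a smaller step, set at a log2 ratio of 0.32. A gene was counted past either size when its ratio reached it and its counting interval did not include 0. In P1048R 3 members were at least 2-fold lower (3.02% of all genes were) and 0 at least 2-fold higher (4.48% of all genes). In T1202K 2 were lower (2.21% of all genes) and 0 higher (2.95%), and in C1233W 1 was lower (1.21%) and 0 higher (4.19%). At the smaller step, 55 of 83 members (66.3%) were lower in P1048R, where 18.8% of all genes were, and 1 was higher, where 18.2% of all genes were. In T1202K 35 (42.2%) were lower against 13.0% of all genes, and 2 were higher against 15.8%. In C1233W 19 (22.9%) were lower against 14.8% of all genes, and 1 was higher against 15.1%.

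Abundance has to be set beside these shares, because ribosomal protein messages are among the most abundant of the cell. Among the 2320 genes with a mean of at least 100 CPM, 34.9% were lower by the smaller step in P1048R, 24.5% in T1202K and 29.7% in C1233W. The medians of those genes were −0.19, −0.14 and −0.19, and those of the 74 members in that range −0.44, −0.22 and −0.15. The members thus lay 0.25 and 0.08 below the 2320 genes in P1048R and T1202K and 0.04 above them in C1233W. The 2320 genes include the 74 members and were not matched to them in level. The median core gene (paralogs left out) stood at 559 CPM in WT. The 74 members contributed 51, 32 and 16 of the genes lower by the smaller step. Set against genes of at least 100 CPM, the members' count was thus high in P1048R and T1202K, while in C1233W 16 of 74 was below the background. Scaling matters as well. On total counts, where the all-gene median moves to 0.19, 0.17 and 0.13 in P1048R, T1202K and C1233W, the members' medians were −0.22, −0.04 and −0.02. Such a scaling shifts every gene alike, so the distance between members and all genes is nearly fixed by construction. On that scale 28, 18 and 6 members were lower by the smaller step and 2, 5 and 4 were higher. These counts have no all-gene share on the same scale beside them, so they are not read against a background. With PBRM1 and the mitochondrially encoded genes out of the totals, the C1233W median of the members turned to 0.01.

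**Figure D1:**
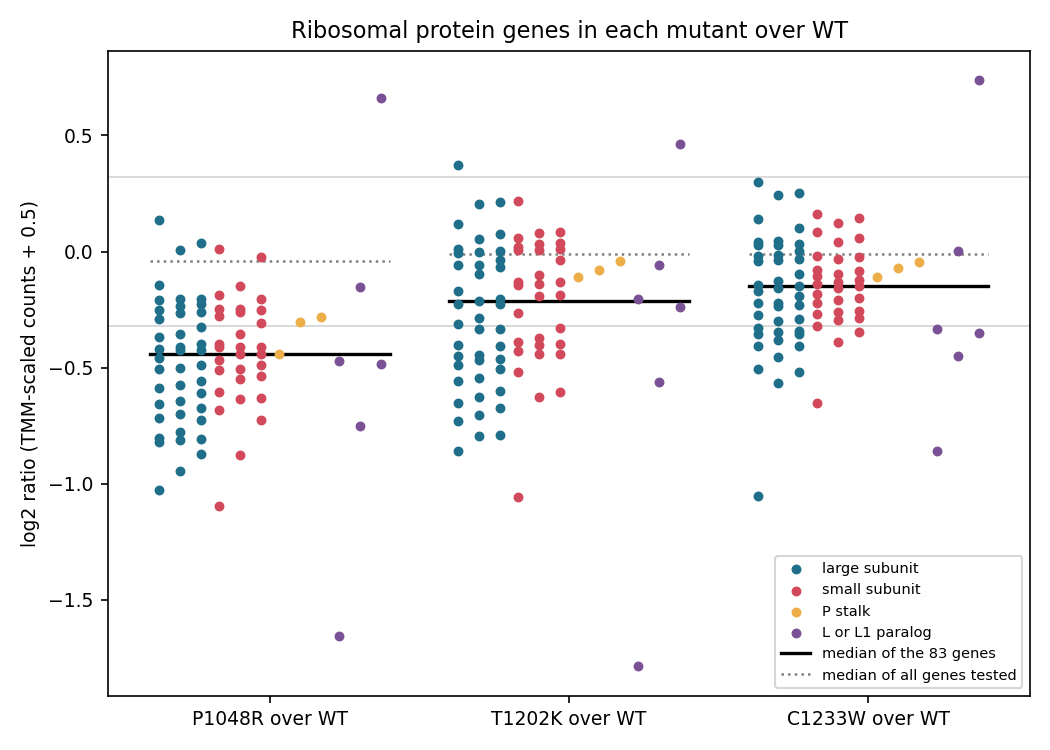
Log2 ratio of each member in P1048R, T1202K and C1233W over WT, 1 point per gene (TMM-scaled counts plus 0.5). The black line is the median of the 83 genes, the dotted line the median of all genes tested, and the grey lines mark the smaller step of 0.32 up and down, with large-subunit, small-subunit, stalk and paralog genes coloured apart. The member medians fall at −0.44, −0.21 and −0.15.

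The lowest core gene in P1048R and T1202K was RPS27, a zinc-binding protein of the small subunit encoded on chromosome 1 (153990755 to 153992155, ENSG00000177954). Its level was 443 CPM in P1048R, 455 in T1202K, 603 in C1233W and 947 in WT. WT was highest and the P1048R and T1202K libraries lay below C1233W, with no overlap of the counting intervals between either of them and C1233W. The log2 ratio over WT was −1.10 (−1.15 to −1.05) in P1048R, −1.06 (−1.11 to −1.01) in T1202K and −0.65 (−0.70 to −0.60) in C1233W. RPS27 was under 2-fold on total counts, at −0.87 in P1048R and −0.88 in T1202K, and with GC and length trends removed.

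RPL23A, which sits at the exit of the nascent chain tunnel and helps dock the signal recognition particle, followed the same order of libraries. It stood at 439 CPM in P1048R, 493 in T1202K, 603 in C1233W and 894 in WT, a log2 ratio over WT of −1.03 (−1.08 to −0.98), −0.86 (−0.91 to −0.81) and −0.57 (−0.62 to −0.52). Its P1048R ratio was −0.98 with DESeq2 size factors and −0.80 on total counts, both under 2-fold. There are 91 annotated RPL23A pseudogenes in the table, with 8.21 reads per 100 RPL23A reads when the 4 libraries are pooled. They held 595 reads in P1048R, 545 in T1202K, 480 in C1233W and 466 in WT. RPL23A itself had 5242, 5583 and 6233 reads in the mutants in that order and 8353 in WT. The counts and ratios of RPL23A thus depend on how reads with several alignments were assigned, something the sources used here do not state.

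Among the other members at the low end, RPL39, a small protein lining the exit tunnel, stood at 196 CPM in P1048R, 228 in T1202K, 285 in C1233W and 378 in WT. RPS25, a small-subunit protein used by several viral internal ribosome entry sites, was at 300 CPM in P1048R, 357 in T1202K, 449 in C1233W and 551 in WT. RPL21, a large-subunit protein, was at 201 CPM in P1048R, 226 in T1202K, 259 in C1233W and 368 in WT. For all 3 genes WT was highest and P1048R lowest. Their P1048R ratios over WT were −0.94, −0.88 and −0.87 on the log2 scale. RPL41, the smallest ribosomal protein, stood at 490 CPM in P1048R, 500 in T1202K, 605 in C1233W and 865 in WT, log2 ratios of −0.82, −0.79 and −0.52.

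C1233W had a different gene at its lower end, RPL36A, a large-subunit protein near the tRNA exit site. RPL36A was at 22.4 CPM in P1048R, 19.7 in T1202K, 16.4 in C1233W and 34.1 in WT, and its C1233W ratio was −1.05 (−1.33 to −0.78). Unlike RPS27 and RPL23A, RPL36A was lowest in C1233W, below P1048R by a log2 ratio of −0.44, the only member lower by the smaller step in C1233W than in P1048R. It was under 2-fold on total counts (−0.92). Its exons overlap the read-through gene RPL36A-HNRNPH2 by 333 bases on the same strand, and reads in shared exons can be lost in counting.

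At the upper end were genes with at least 1 mutant level above WT. RPL13, a large-subunit protein, was at 612 CPM in P1048R, 721 in T1202K, 663 in C1233W and 557 in WT. The mutant libraries all lay above WT, and T1202K passed the smaller step, at 0.37 (0.32 to 0.42). RPL13 fell short of that step in T1202K with GC and length trends removed (0.20 and 0.24). RPS2, a small-subunit protein at the mRNA entry channel, was at 1745 CPM in P1048R, 2010 in T1202K, 1910 in C1233W and 1729 in WT. In P1048R its ratio over WT was 0.01 (−0.02 to 0.04), which counting error does not separate from no change. RPL36 had 365, 422 and 400 CPM in P1048R, T1202K and C1233W, and 364 CPM in WT. RPL10A, of the L1 stalk that guides tRNA out of the ribosome, had 399, 447 and 459 CPM in the same mutants, and 388 CPM in WT. RPL3, which reaches close to the peptidyl transferase centre, was at 636 CPM in P1048R, 762 in T1202K, 864 in C1233W and 703 in WT, so that only P1048R lay below WT. RPS21 stood at 137 CPM in P1048R, 154 in T1202K, 170 in C1233W and 152 in WT.

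**Figure D2:**
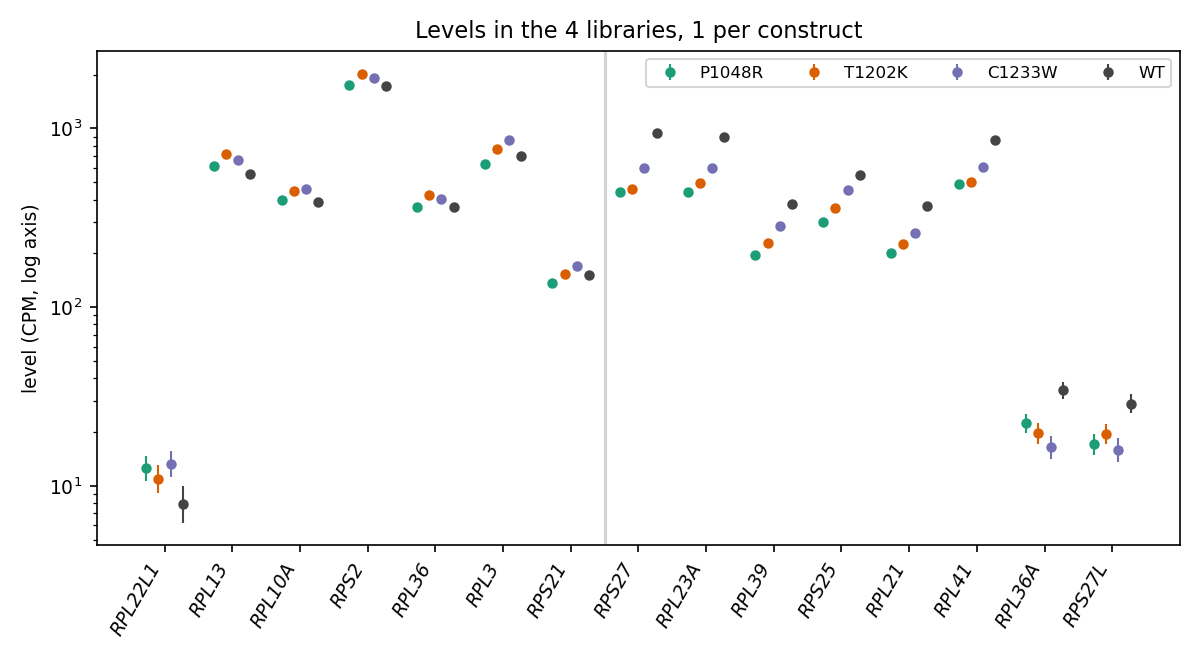
Levels in CPM on a log axis of the members named for the highest (left of the line) and lowest (right of the line) ratios, in P1048R, T1202K, C1233W and WT, with 95% counting intervals. RPS27 sits at 443, 455 and 603 CPM in the mutants and at 947 CPM in WT, whereas RPL22L1 sits at 12.6, 11.0 and 13.3 CPM in the mutants and at 7.92 CPM in WT.

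The large-subunit median was below the small-subunit median in each mutant after TMM scaling, with the widest gap in T1202K. The 43 large-subunit genes had a median log2 ratio over WT of −0.46 in P1048R, −0.31 in T1202K and −0.17 in C1233W, and the 31 small-subunit genes had −0.41, −0.14 and −0.14. Lower by the smaller step were 30, 21 and 13 large-subunit genes in P1048R, T1202K and C1233W, and 20, 12 and 3 small-subunit genes. The 3 small-subunit genes in C1233W were 9.68% of that subunit, below the 14.8% of all genes and 29.7% of genes of at least 100 CPM. The 13 large-subunit genes in C1233W were 30.2%, above all genes but close to the genes of at least 100 CPM. In P1048R and T1202K the shares of both subunits were above the 18.8% and 13.0% of all genes. They were also above the 34.9% and 24.5% of genes of at least 100 CPM. With coding GC content and length trends removed, the medians were −0.26, −0.15 and −0.01 for the large subunit and −0.21, −0.08 and −0.05 for the small subunit, so that their order turned in C1233W and the T1202K gap narrowed. On total counts the large-subunit medians were −0.24, −0.14 and −0.04, and the small-subunit medians −0.19, 0.03 and −0.01, the small-subunit median turning sign in T1202K. The P-stalk genes, whose products recruit elongation factors to the ribosome, stood nearer to WT. RPLP0 was at 592 CPM in P1048R, 700 in T1202K, 697 in C1233W and 719 in WT. RPLP1 was at 633, 740 and 724 CPM in P1048R, T1202K and C1233W, and at 782 CPM in WT. RPLP2 was at 211, 266 and 273 CPM in the mutants in that order, and at 287 CPM in WT. RPLP2 in P1048R (−0.44, −0.52 to −0.36) was the 1 stalk gene lower by the smaller step. The stalk median, −0.30, −0.08 and −0.07 after TMM scaling, was −0.08, 0.10 and 0.06 on total counts, which turned its sign in T1202K and C1233W.

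RPL5 and RPL11 bind the 5S ribosomal RNA and, when free of the ribosome, the p53 ubiquitin ligase MDM2. RPL5 was at 1227 CPM in P1048R, 1310 in T1202K, 1489 in C1233W and 1739 in WT, and RPL11 at 730, 801 and 932 CPM in the mutants in that order and 1096 CPM in WT. Both were lowest in P1048R and highest in WT, with ratios over WT of −0.50, −0.41 and −0.22 for RPL5 and −0.59, −0.45 and −0.23 for RPL11. RPS27A is made as a fusion with ubiquitin. It stood at 543 CPM in P1048R, 539 in T1202K, 618 in C1233W and 771 in WT, a ratio of −0.51, −0.52 and −0.32. The other members that are not named ranged in P1048R against WT from a log2 ratio of −0.81 (RPL7 and RPL34) up to −0.02 (RPS12).

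The ratios varied with base composition. Across the 77 core genes, Pearson's r between the GC content of the coding sequence and the log2 ratio over WT was 0.56 in P1048R, 0.67 in T1202K and 0.55 in C1233W, a description across genes that share 4 libraries. Over the 13448 protein-coding genes tested r was 0.06, 0.22 and 0.18. The 26 core genes of lowest GC content (42.5% to 47.9%) had medians of −0.61, −0.47 and −0.28 in P1048R, T1202K and C1233W. The next 26 (48.5% to 54.2%) had −0.42, −0.21 and −0.15, and the 25 of highest GC content (54.2% to 63.0%) had −0.28, 0.01 and −0.02. In T1202K 22 of the low-GC genes were lower than in WT by the smaller step, 10 of the middle and 1 of the high-GC genes. Among protein-coding genes of at least 100 CPM within the same GC ranges, 31.5%, 18.2% and 9.83% were lower by that step in T1202K, with medians of −0.21, −0.12 and −0.01. In T1202K the core genes' share was thus above that of abundant genes in the low and middle ranges and not in the high range. The other mutants did not share this pattern. In P1048R 23 of 26, 19 of 26 and 9 of 25 core genes were lower, against 41.8%, 34.8% and 30.3% of abundant genes. In C1233W 10 of 26, 6 of 26 and 0 of 25 were lower, against 35.1%, 30.6% and 19.4%. RPL39 (42.5%) and RPS25 (47.2%) lay among the low-GC genes, and RPL36 (59.7%) and RPL13 (62.2%) among the high-GC genes. Core genes had a median coding GC content of 51.6% and a median coding length of 456 bases, against 52.4% and 1425 bases for all protein-coding genes tested. When coding GC content and length trends over all protein-coding genes were removed, an alternative chosen after the data had been seen, the members' medians were −0.22, −0.13 and −0.03. The part of composition in the ratios was otherwise not tested.

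**Figure D3:**
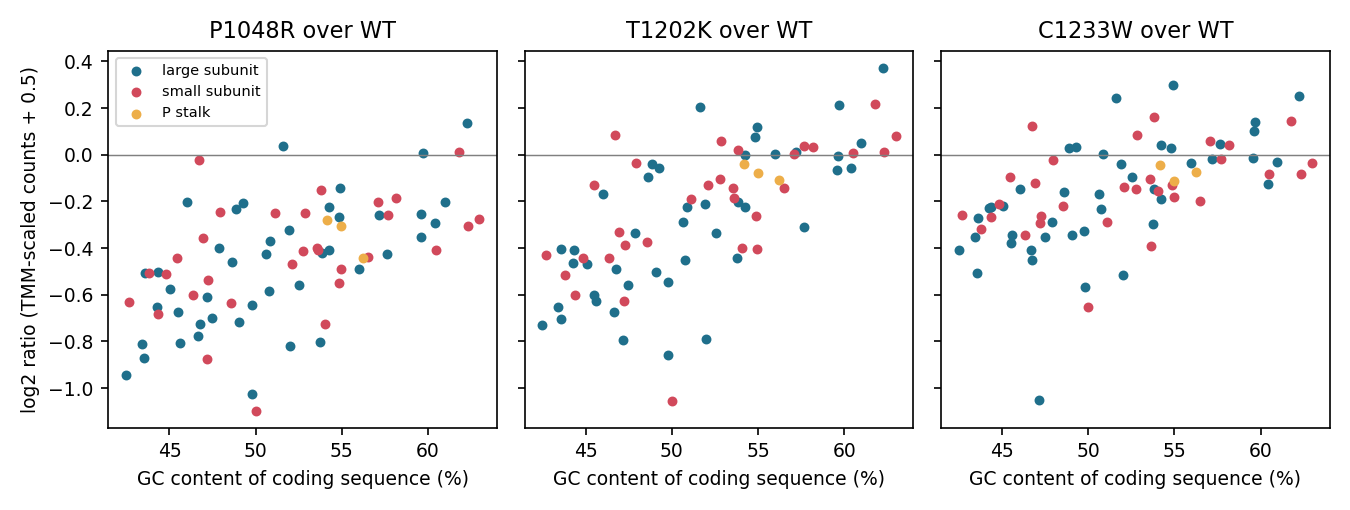
Log2 ratio over WT (TMM-scaled counts plus 0.5) against GC content of the coding sequence for the 77 core genes, with 1 panel per mutant and subunits coloured apart. The points climb from left to right, with Pearson's r of 0.56, 0.67 and 0.55 across genes.

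Among the 66 members with a matched promoter window, the 62 core genes were compared by the pyrimidine run at the annotated start. The 42 with the run at the start had median log2 ratios over WT of −0.47, −0.32 and −0.16 in P1048R, T1202K and C1233W. The 20 without a run exactly at the start had −0.29, −0.10 and −0.09. Of these, RPL3, RPL4, RPL10A, RPL11, RPL19, RPL32, RPS7 and RPS28 had a run that began within 5 bases of the start. The ranges of the sets overlapped widely, in P1048R from −1.10 to 0.01 with the run and from −0.73 to 0.14 without it. This is a description of the annotated windows, and its relation to base composition was not tested.

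The mutants also differed among themselves. T1202K lay above P1048R by a median log2 ratio of 0.20, against 0.03 for all genes, and C1233W above P1048R by 0.28, against 0.00 for all genes. C1233W lay above T1202K by 0.07, against −0.02 for all genes. Higher by the smaller step in T1202K than in P1048R were 9 members (5.89% of all genes were higher and 4.73% lower), and 0 were lower. The 9 became 5 with DESeq2 size factors, 2 on total counts and 3 with PBRM1 and the mitochondrially encoded genes out of the totals. Those settings have no all-gene share beside them. Under TMM scaling the 9 genes included RPS9, RPL24, RPL7A and RPS3, with RPL29 first at 0.49 (0.43 to 0.56). RPL29 stood at 282 CPM in P1048R, 396 in T1202K, 386 in C1233W and 395 in WT. By the same step 32 members were higher in C1233W than in P1048R and 1 was lower (12.7% and 12.2% of all genes), led among core genes by RPS25 (0.58), RPS3 (0.57) and RPL39 (0.54). In C1233W against T1202K 5 were higher and 0 lower (10.1% and 11.8%): RPS27 (0.41), RPL13A (0.36), RPS24 (0.33), RPS25 (0.33) and the sparse RPL3L. At 2-fold, 0 members differed between T1202K and P1048R (0.572% of all genes higher, 0.664% lower). RPL3L alone was at least 2-fold higher in C1233W than in P1048R (3.73% of all genes higher, 0.806% lower) and than in T1202K (3.05% higher, 0.486% lower). The genes named between mutants were chosen after their values were seen.

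Most paralogs took small parts of their pairs, RPL7L1 being the exception, and RPL22L1 had the highest ratio over WT of the members named here in each mutant. RPL22L1 is a near relative of RPL22 and is known in mouse cells to be held down by it. RPL22L1 stood at 12.6 CPM in P1048R, 11.0 in T1202K, 13.3 in C1233W and 7.92 in WT, from 150, 124, 137 and 74 reads. It was the lowest in WT, and its ratio over WT was 0.66 (0.26 to 1.09) in P1048R, 0.46 (0.04 to 0.90) in T1202K and 0.74 (0.32 to 1.17) in C1233W. RPL22 was lower in each mutant than in WT, as most members were, at 169 CPM in P1048R, 193 in T1202K, 227 in C1233W and 266 in WT. Among the mutants, C1233W had the highest level of both genes. RPL22L1 was 6.93% of the pair's reads in P1048R (5.89 to 8.08), 5.38% in T1202K (4.49 to 6.38), 5.52% in C1233W (4.66 to 6.50) and 2.89% in WT (2.28 to 3.62). The WT interval did not overlap that of any mutant. Both genes open with a pyrimidine run in the windows printed above.

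RPS27L, a paralog of RPS27 known as a p53 target, stood at 17.1 CPM in P1048R, 19.5 in T1202K, 15.9 in C1233W and 28.8 in WT. It was highest in WT and lowest in C1233W, where its log2 ratio was −0.86 (−1.15 to −0.57). As both genes were lower than in WT, RPS27L was still 3.72% of the pair in P1048R, 4.11% in T1202K, 2.56% in C1233W and 2.95% in WT. RPL39L, known for its expression in testis, was at 6.45, 6.89 and 5.61 CPM in P1048R, T1202K and C1233W, and at 7.17 CPM in WT, and each of its counting intervals against WT included no change. It was 3.18%, 2.93% and 1.93% of the RPL39 pair in the mutants in that order, and 1.86% in WT. RPL7L1, which acts in assembly of the large subunit, was at 315, 369 and 346 CPM in the mutants and 436 CPM in WT. RPL26L1, close in sequence to RPL26, was at 49.1, 59.5 and 50.2 CPM in the mutants and 68.6 CPM in WT. RPL7L1 was 37.3%, 38.4% and 32.3% of the RPL7 pair in the mutants and 31.9% in WT, and RPL26L1 11.7%, 13.0% and 9.57% of the RPL26 pair and 11.0% in WT. RPL3L, a form of striated muscle, had 7 reads in P1048R, 6 in T1202K, 20 in C1233W and 18 in WT, so that its ratios of −1.66 (−3.22 to −0.39) and −1.79 (−3.48 to −0.47) in P1048R and T1202K rest on few reads. RPL10L, the testis form left out for its 0 reads, is limited to at most 3 reads, or 0.251, 0.265 and 0.290 CPM in P1048R, T1202K and C1233W and 0.321 CPM in WT.

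**Figure D4:**
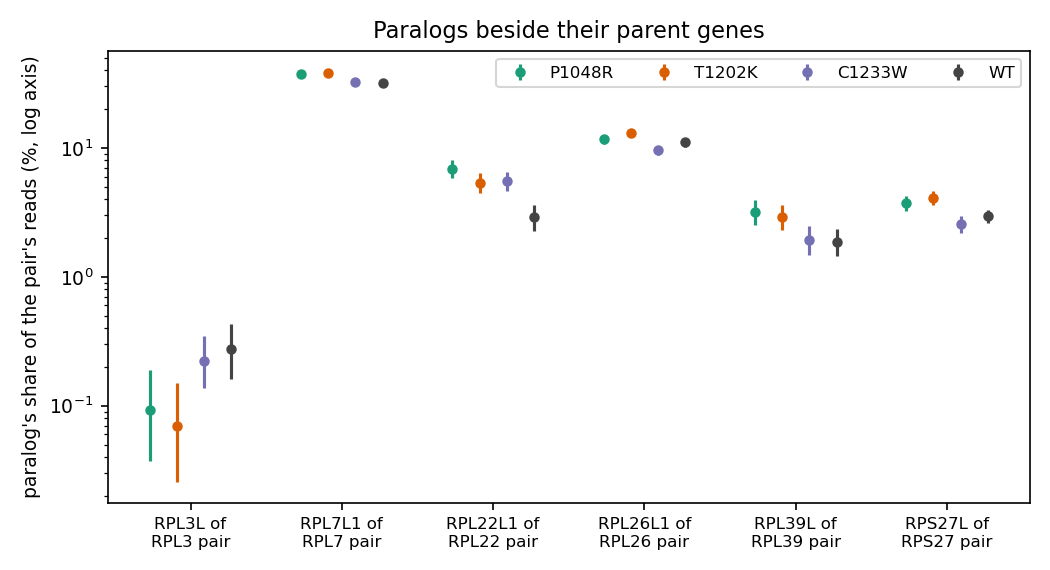
Share of each paralog in the reads of its pair (in %, log axis) in P1048R, T1202K, C1233W and WT, with 95% counting intervals. For RPL22L1 the mutants lie at 6.93%, 5.38% and 5.52% and WT at 2.89%, with no overlap of intervals between WT and the mutants, whereas RPL3L rests on at most 20 reads per library.

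Although the proteins are needed in nearly equal numbers, their messages were not counted equally. Per kilobase of coding sequence, the median core gene stood at 841 CPM per kb in P1048R, 980 in T1202K, 1047 in C1233W and 1155 in WT. In WT the highest values were those of RPL41 (11533 CPM per kb), RPS27 (3757), RPL38 (3292), RPS24 (3150) and RPL37A (3082). RPL41 has a coding sequence of 75 bases, and reads on untranslated exons are counted too, so short genes are overstated on this scale. In P1048R, T1202K and C1233W RPL41 was at 6530, 6663 and 8061 CPM per kb. RPL17 was lowest in WT (37.2 CPM per kb), and RPL36A (107), RPS10 (259) and RPS28 (445) were also at the low end. RPL17, RPL36A and RPS10 overlap a same-strand read-through gene in GENCODE release 29, by 611, 333 and 929 bases. Those overlapping genes had 0 to 2 reads per library. RPS10 is known from Diamond-Blackfan anaemia. RPL17 was at 17.8, 18.3 and 18.6 CPM in the mutants in that order, and at 20.5 CPM in WT. The part of shared exons in these levels was not tested.

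**Figure D5:**
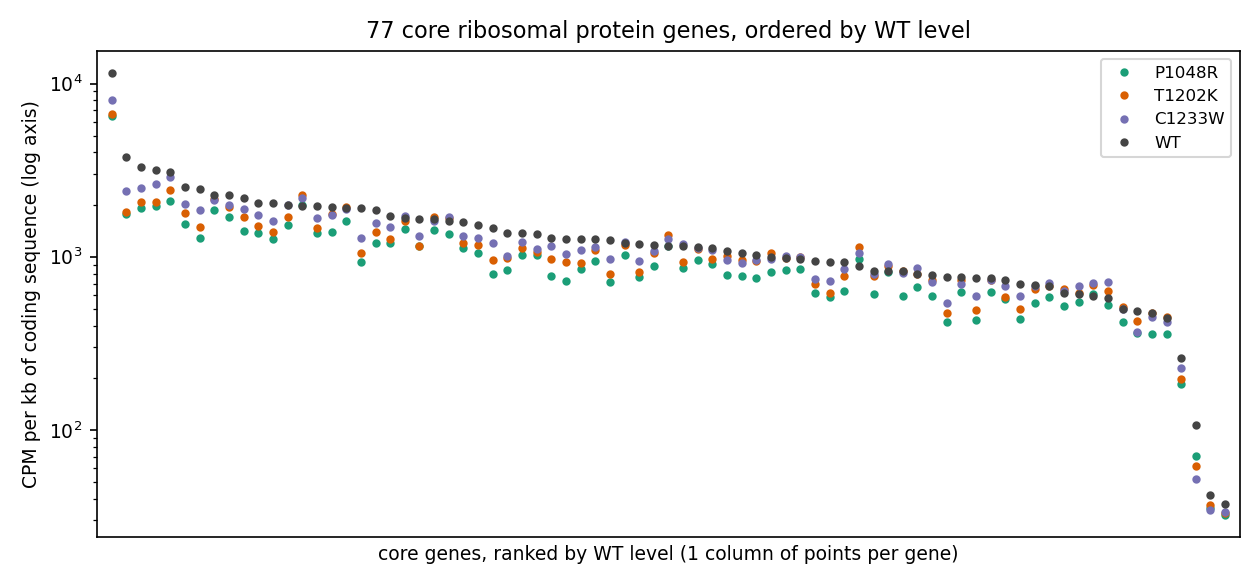
Levels of the 77 core genes in CPM per kb of coding sequence (log axis), in P1048R, T1202K, C1233W and WT, with genes ranked from left to right by the WT level. RPL41 is highest at 11533 in WT, and RPL17 is lowest at 37.2 in WT, and in WT the quartiles lie at 767 and 1716.

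Ribosomal protein genes have left many copies in the genome, most of them processed, and 1144 ribosomal protein pseudogenes of all kinds were in the table. They took 0.0803% of reads in P1048R, 0.0900% in T1202K, 0.0883% in C1233W and 0.0798% in WT, or 2.05, 2.06 and 1.95 reads per 100 member reads in those mutants and 1.73 in WT. RPS2 copies held 4924 of the 9003 pseudogene reads in P1048R, 5762 of 9892 in T1202K, 4707 of 9139 in C1233W and 3651 of 8176 in WT. The higher rate in the mutants lay in those copies. Of the 84 tested, 31 were lower than WT by the smaller step and 4 higher in P1048R, 27 and 6 in T1202K, and 17 and 5 in C1233W. Of all genes, 18.8%, 13.0% and 14.8% were lower and 18.2%, 15.8% and 15.1% higher. The 20 pseudogenes of RPS2 held 23.9 reads per 100 RPS2 reads, and those of RPS28 held 40.4 per 100 RPS28 reads. RPS2P55 was at 81.2 CPM in P1048R, 113 in T1202K, 92.6 in C1233W and 50.5 in WT, a log2 ratio of 0.68, 1.16 and 0.87. Reads on these copies can come from the parent gene, so the values of RPS2 and RPS28 are uncertain.

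Other genes of the translation apparatus were followed as lists chosen for their roles, and some genes are shared between lists. Their counts at the smaller step are set against all genes, of which 18.8%, 13.0% and 14.8% were lower and 18.2%, 15.8% and 15.1% higher in P1048R, T1202K and C1233W. Of genes with a mean of at least 100 CPM, 34.9%, 24.5% and 29.7% were lower and 8.79%, 6.77% and 4.87% higher. That is the nearer background for lists of abundant genes. In the list of proteins joined to ubiquitin or bound to the ribosome, FAU, the precursor of RPS30, was at 162 CPM in P1048R, 198 in T1202K, 196 in C1233W and 275 in WT, and RACK1, a small-subunit scaffold, at 934, 1083 and 1109 CPM in the mutants and 1108 CPM in WT. Of its 4 genes, 3, 2 and 2 were lower by the smaller step in P1048R, T1202K and C1233W, and 0 were higher. Among 8 elongation factor genes 4, 1 and 3 were lower and 1 was higher in each mutant, in T1202K close to those all-gene shares in both directions. EEF1A1, which delivers aminoacyl-tRNA, was at 2987 CPM in P1048R, 3818 in T1202K, 4620 in C1233W and 5631 in WT. EEF1A2, its near-identical tissue form, was at 280, 291 and 281 CPM in the mutants and 190 CPM in WT, the higher gene in each.

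Of 27 other TOP messages, 21 were lower by the smaller step in P1048R, 12 in T1202K and 6 in C1233W, with 1, 1 and 0 higher. In C1233W that share, 22.2%, was above the 14.8% of all genes but below the 29.7% of genes of at least 100 CPM. The median log2 ratios of these messages over WT, −0.41, −0.25 and −0.12, lay near the members' own. On total counts they were −0.19, −0.08 and 0.01, the last turning sign as the scale moved. NPM1, a nucleolar chaperone, stood at 1740 CPM in P1048R, 1907 in T1202K, 2177 in C1233W and 2996 in WT. GAS5, a non-coding snoRNA host with a TOP start, was at 173, 157 and 142 CPM in the mutants in that order, and at 118 CPM in WT. The 15 regulators of TOP translation had medians of −0.01, 0.05 and −0.01 after TMM scaling, and 0.22, 0.22 and 0.12 on total counts. In that list 3 genes were higher and 3 lower in P1048R, 4 and 1 in T1202K, and 0 and 1 in C1233W. In P1048R these counts were at the all-gene share in both directions. LARP1, the TOP-binding repressor, was at 413 CPM in P1048R, 442 in T1202K, 450 in C1233W and 517 in WT.

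The list of 13 chaperones and importers for ribosomal proteins includes NAP1L1, IPO5 and IPO7, which are also among the TOP messages above. Of the 13 genes, 6 were lower in P1048R, 4 in T1202K and 7 in C1233W, and 1, 2 and 0 higher. Their medians were −0.28, −0.16 and −0.36 after TMM scaling and −0.05, 0.02 and −0.22 on total counts, with T1202K turning sign. LTV1, an assembly factor of the small subunit, was at 124 CPM in P1048R, 119 in T1202K, 83.5 in C1233W and 161 in WT, its C1233W ratio −0.95 (−1.07 to −0.83). For GRWD1, a chaperone of RPL3, the values were 71.5 CPM in P1048R, 84.3 in T1202K, 47.6 in C1233W and 77.8 in WT, so that C1233W alone lay apart. The 78 mitochondrial ribosomal protein genes had medians of −0.16, −0.05 and −0.39 in P1048R, T1202K and C1233W, and of 0.07, 0.13 and −0.26 on total counts, where P1048R and T1202K turned sign. In C1233W 41 of the 78 were lower by the smaller step and 0 higher, in P1048R 16 lower and 3 higher, and in T1202K 11 lower and 9 higher. The lower shares in P1048R (20.5%) and T1202K (14.1%) were close to the 18.8% and 13.0% of all genes. In C1233W the lower share was 52.6%, against 14.8% of all genes. On total counts the numbers lower and higher were 27 and 0 in C1233W, 5 and 14 in P1048R, and 4 and 22 in T1202K. No all-gene share on that scale stands beside them. The cytosolic set was lowest in P1048R and the mitochondrial set in C1233W, and the difference between those orders was not tested. None of these context genes passed 2-fold against WT.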

How the data were processed

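RNA from 4 HEK293T libraries, 1 per construct, was sequenced after a stranded Qiagen library protocol, per the labels' protocols. The deposited values are whole-number counts of reads per gene, which the authors did not normalize. Per the submitters' processing notes, the tools were Trim Galore, HISAT2 and featureCounts on build hg38, with no versions. How multi-mapping reads were handled, the strand setting and the annotation release are each not given in the sources. All 58735 identifiers matched GENCODE release 29, used for coordinates, coding length and GC content.

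Counts were scaled by TMM factors from edgeR 4.0.16 (P1048R 1.07, T1202K 1.03, C1233W 0.999, WT 0.912) under R 4.3.3. For the 16262 genes at 1 CPM or more in at least 1 library, log2 ratios were taken after adding 0.5. Intervals are 95% Clopper-Pearson (ratios, shares) or exact Poisson (levels). No test or p-value was possible with 1 library per construct. The ratio code was tested on simulated data.

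Members and lists were chosen with earlier results of these data known. Named genes are those past 2-fold, the 5 highest and 5 lowest ratios per mutant over WT among genes of at least 100 reads, the 5 highest and lowest core levels per kb, the paralogs with parents, RPL5, RPL11 and RPS27A. Promoter windows are from RefSeq (GRCh38.p14). There were 9 alternatives, 2 of them chosen after seeing the data. Members of human chromosome 8 are shown without sequence. Some values named by these rules are not reported here.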

Additional observations from a re-analysis of the deposited data

How the results depend on the processing

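The order of the 3 medians over WT, P1048R lowest and C1233W highest, was the same with TMM and on total counts. With DESeq2 size factors, 5 rather than 9 members were at least 0.32 apart on the log2 scale (the smaller step) between T1202K and P1048R. Counts in this section take both directions together and have no all-gene share for the same setting beside them. On total counts 1, 1 and 0 members passed 2-fold in P1048R, T1202K and C1233W against WT. On that scale 30, 23 and 10 passed the smaller step, of which 2, 5 and 4 were higher. The medians there were −0.22, −0.037 and −0.016. Between mutants on total counts, 2 members passed the smaller step for T1202K against P1048R, 16 for C1233W against P1048R (median 0.19) and 3 for C1233W against T1202K. With PBRM1 and mitochondrially encoded genes out of the totals, 1, 1 and 0 passed 2-fold, 36 (P1048R) and 10 (C1233W) passed the smaller step, and the medians were −0.28, −0.091 and 0.012. The last turned sign. In that setting 3 passed for T1202K against P1048R and 8 for C1233W against T1202K. The member shares became 4.20%, 4.70%, 5.17% and, in WT, 5.16%, and the pseudogene shares 0.0860%, 0.0969%, 0.101% and, in WT, 0.0892%. A minimum of 5 CPM left 1 member past 2-fold in T1202K against WT and 0 between C1233W and either other mutant, since RPL3L was no longer tested. A mean of at least 100 CPM gave the same 1 and 0, and 0 in C1233W against WT. With the GC and transcript length trend removed, 1, 1 and 0 passed 2-fold over WT, 8 passed the smaller step in C1233W and 4 in T1202K against P1048R, with medians of −0.29 (P1048R) and −0.072 (C1233W). With coding GC and coding length instead, 1, 1 and 0 passed 2-fold, 30, 21 and 9 passed the smaller step over WT and 4 for T1202K against P1048R, and the medians were −0.22, −0.13 and −0.032. There RPL39 (0.016) and RPL41 (0.0019) in C1233W turned sign. The cause was not tested. RPL22L1 stayed higher by the smaller step in each mutant under every setting run for it.

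No paired analysis was possible because the labels carry no replicate numbers and each construct has 1 library, and leaving out a library leaves no comparison. Depth limits RPL3L, RPL39L and RPL22L1, which had at most 150 reads per library.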
